A study of Caenorhabditis elegans with 6 samples.

Results

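R244H worms at the L4 stage, the last larval stage of *Caenorhabditis elegans*, were compared with wild-type worms of the same labelled stage, with attention to the genes of the germline, the cuticle, the intestine and the neurons. All 12798 genes of the deposited table entered the comparison, which used 2 of the 6 libraries of the series. Of these genes, 930 belong to the lists of the 4 tissue programmes, with 259 in the germline lists, 262 in the cuticle lists, 147 in the intestine lists and 266 in the neuron lists, and a few stand in more than 1 list. The WT library came from N2, the wild-type laboratory strain. The R244H library came from worms that carry the *sdhb-1* deletion *gk165* and a single-copy transgene on the X chromosome, in which the *sdhb-1* promoter drives genomic *sdhb-1* with the Arg244His change. WTR, a further L4 library that is set beside them as a control, carries the wild-type version of that transgene over the same deletion, so it shares the deletion and the insertion with R244H, whereas WT shares neither. All worms were grown at 20 °C on OP50 bacteria, and each library was made from polyA RNA of a pool of whole worms. The sample label writes the R244H genotype as balanced over *mIn1*, a chromosome II balancer that carries a pharyngeal GFP marker (*mIs14*) and *dpy-10(e128)*. Both transgenes also carry a functional *unc-119* gene, and the study's methods list *unc-119(ed3)* with a question mark for R244H and WTR alike. Whether balanced animals were in the pool is not given in the sources used here. The study's description has R244H animals reaching adulthood late and sterile, so the labelled stage and the developmental progress of the pool cannot be told apart from the genotype.

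*sdhb-1* encodes the iron-sulphur subunit of succinate dehydrogenase, the respiratory complex that oxidises succinate to fumarate in the tricarboxylic acid cycle and hands the electrons to ubiquinone. During the L4 stage of the wild type, hermaphrodite germ cells multiply, enter meiosis and make sperm before they switch to oocytes, and the epidermis builds the adult cuticle beneath the larval one. The intestine takes up food, stores fat and, from late L4 onwards, makes yolk for the oocytes. Each larval stage ends with a molt, and cuticle collagens and precuticle proteins are expressed in waves that repeat with each molt.

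Each strain was sequenced as 1 library, so no difference below has a replicate check and no test between strains was made. Reads assigned to the listed exons numbered 405789 in R244H (L4), 867446 in WT (L4) and 542503 in WTR (L4), and between 188742 and 580259 in the L2 and L3 libraries. A level is the mean RPKM (reads scaled to exon length and library size) over the exons of a gene, and a log2 ratio is taken after adding 1 RPKM. A gene was called higher or lower when R244H differed from WT (L4) by at least 2-fold, when 1 or both of the pair reached 5 RPKM, and when the 95% counting interval of its pooled reads excluded no change. These intervals are exact (Clopper-Pearson), cover counting error only, and can lie to 1 side of a ratio that was averaged over exons. Of the 12798 genes, 939 were called higher (7.34%) and 2137 lower (16.7%), and the median log2 ratio of the 12240 genes with 5 RPKM or more was -0.27. Centred on that median, 1407 genes were called higher and 1626 lower. Below, WT without a stage is the L4 library. A list is read against these shares and this shift.

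The targeted gene was checked before the rest. *sdhb-1* (II, 9350648 to 9352801, WBcel235) had 68 reads in R244H, 165 in WT, 44 in WTR, 32 in WT (L2), 142 in WT (L3) and 5 in *gk165* (L2). Its level was 158 RPKM in R244H and 183 RPKM in WT, a difference that the reads do not resolve (log2 ratio -0.21, interval -0.68 to 0.17). Against WTR, which had 76.1 RPKM, it was called higher in R244H (log2 ratio 1.05, interval 0.48 to 1.62). The deletion also removes the start of the neighbouring gene *cup-15* (II, 9353383 to 9354327), which had 14 reads in WT, 4 in WT (L3) and 1 in WT (L2), and 0 reads in each of R244H, WTR and *gk165*. With 0 reads, up to 3 are allowed, so *cup-15* was at least 2.28-fold lower in R244H than in WT. Markers of muscle, gut, epidermis and neurons were also detected in R244H. It had 3603 reads of the body wall myosin *unc-54*, 19 of the gut esterase *ges-1*, 725 of the epidermal collagen *col-19* and 91 of the synaptobrevin *snb-1*. The epidermal marker *lin-26* had 5 reads in R244H, 20.5 in WT and 24 in WTR. It was called lower against WTR (log2 ratio -2.26) but not against WT.

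**Figure D1:**
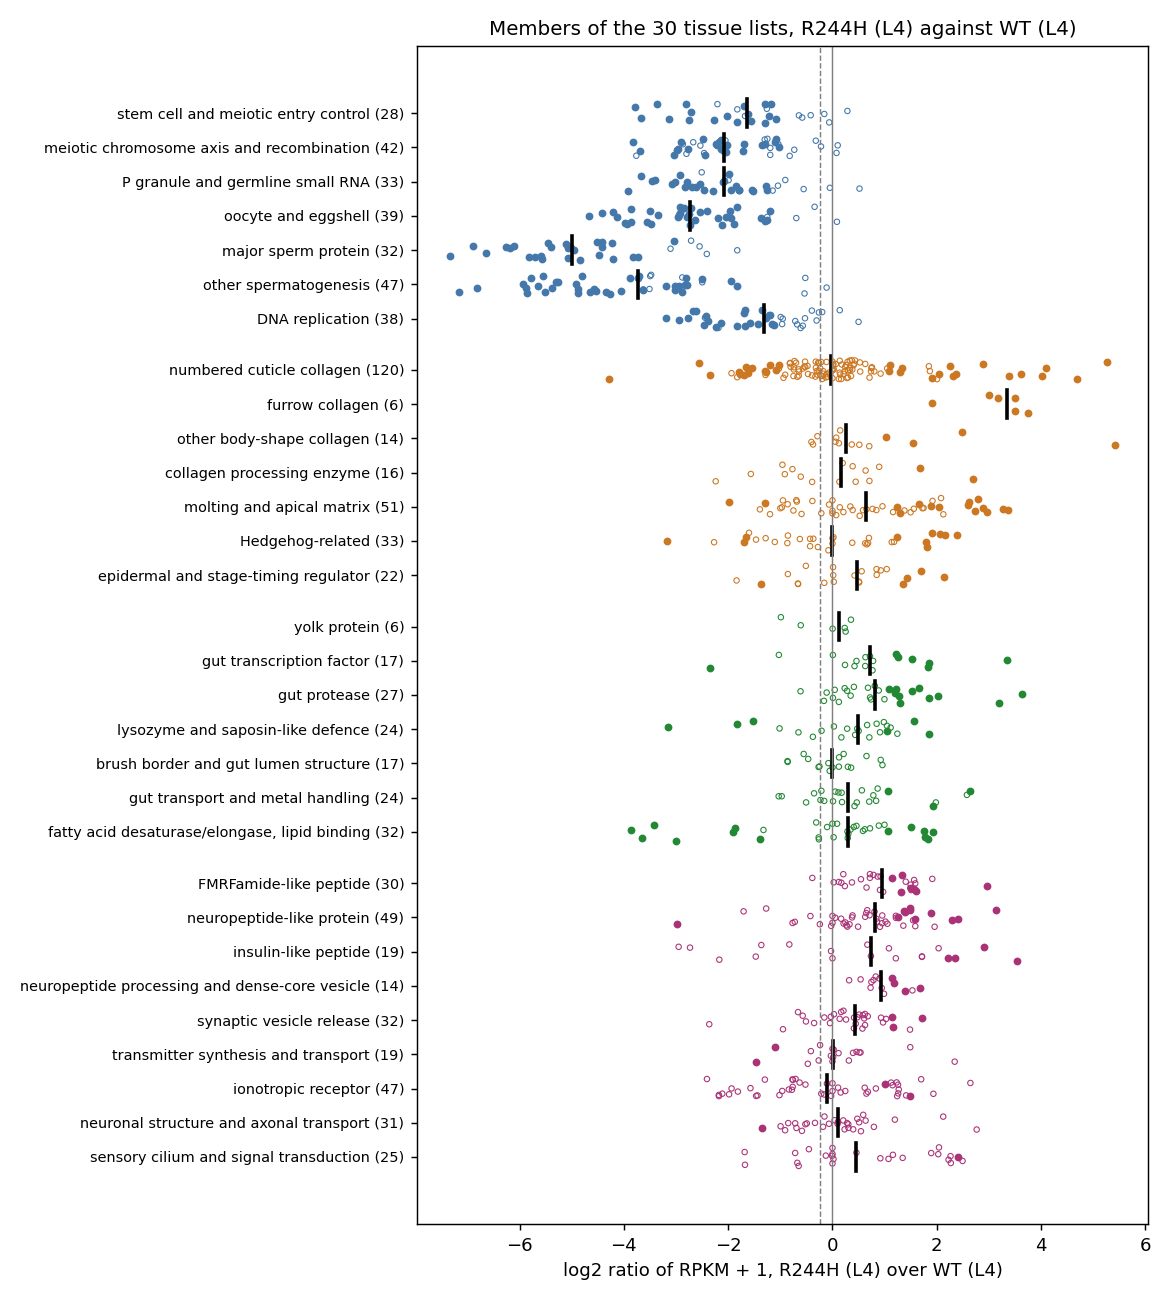
Log2 ratio of RPKM + 1 in R244H (L4) over WT (L4) on the x axis for every member of the 30 tissue lists, with the number of members in brackets. Filled points are genes called higher or lower, open points are not called, black bars are list medians, the solid line is no change and the dashed line is the median of all genes. The median of every germline list lies to the left of the dashed line, and the furrow collagens lie furthest to the right with a median of 3.34.

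The germline programme was lower in R244H. Of its 259 genes, 187 were called lower and 0 higher, 252 had a ratio below 0, and the median log2 ratio was -2.51, compared with -0.24 over all genes. Together these genes took 2.21% of the reads in WT, 2.80% in WTR and 0.40% in R244H, close to the 0.44% of WT (L2) and the 0.47% of WT (L3). Of the same genes, 76 had no read in R244H, and with these set at the bound that 3 reads give, the median was -1.94. In bulk RNA, fewer germ cells and less RNA per germ cell cannot be told apart.

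Genes that keep germ cells dividing or bring them into meiosis were lower by less than those of the gametes. Of 28 such genes, 18 were called lower, with a median of -1.65 (-1.43 with genes at the bound). *glp-1*, the Notch receptor through which the distal tip cell holds germ cells in mitosis, had 13 reads in R244H, 97.5 in WT and 61.7 in WTR, and 10 in WT (L3). That is a log2 ratio of -2.02 (interval -2.83 to -1.03), and *sygl-1*, a target of this receptor that supports the stem cells, had a ratio of -3.14 from 2 reads against 47 (interval -6.61 to -1.59). *gld-1*, a translational repressor of meiotic germ cells, had 13 reads in R244H, against 455 in WT, 288 in WTR and 10 in WT (L3). At the other end of the list, *larp-1* and *gld-2* were lower than in WT by log2 ratios of -1.22 and -1.07, but their ratios to WTR were -0.34 and -0.51 and were not called. *atx-2*, the ataxin homologue, was not called, with 75.7 RPKM in R244H and 84.5 in WT.

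Meiotic chromosome genes and P granule genes followed the same direction. Among 42 genes of the meiotic axis, pairing and recombination, 24 were called lower, with a median of -2.07 (-1.30 with genes at the bound). The axis proteins *htp-1* and *htp-2* had 1 read each in R244H, against 67 and 35 in WT, and the polo-like kinase of pairing centres, *plk-2*, had 3 reads against 87.5. Among 33 genes of P granules, the perinuclear bodies of germ cells, and of germline small RNA, 25 were called lower, with a median of -2.07. *pgl-1* and *glh-1*, which form and maintain these granules, had 10 and 47 reads in R244H, against 257 and 528 in WT, 164 and 290 in WTR, and 24 and 60 in WT (L3). The Argonaute *wago-1* had 10 reads in R244H and 296 in WT, and *alg-4*, an Argonaute of the male germline, had 2 reads and 178.

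Sperm genes showed the widest differences. The 32 genes of the major sperm proteins, which drive sperm crawling and signal to the oocyte, summed to 131 RPKM in R244H, 4851 in WT and 6644 in WTR, and 27 of them were called lower, with a median of -4.98 (-3.18 with the 20 genes without a read in R244H at the bound). These genes share nearly identical sequences, so the reads of a single member are uncertain and the sum is the safer value. Of 47 other spermatogenesis genes, 37 were called lower, with a median of -3.73 (-2.38 at the bound). *spch-1* and *spch-3*, which encode chromatin proteins of sperm, had 1 and 2 reads in R244H, 478 and 343 in WT and 352 and 302 in WTR. The sperm phosphatase *gsp-3* had 0 reads in R244H and 118 in WT, at least 19.3-fold lower. In WT (L2) and WT (L3), *spch-1*, *spch-3* and *gsp-3* had 0 reads.

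Oocyte genes were lower as well, although several were still read. Of 39 genes, 35 were called lower and all 35 were also called lower against WTR, with medians of -2.73 to WT and -3.62 to WTR. The Y-box proteins *cey-2* and *cey-3*, which coat stored RNA, had 10 and 4 reads in R244H, 391 and 194 in WT and 365 and 207 in WTR. *rme-2*, the yolk receptor, had 7 reads in R244H, 127.5 in WT, 155.5 in WTR and 7 in WT (L3), a log2 ratio of -2.78 (interval -4.51 to -2.08). *oma-1*, which is needed for oocyte maturation, had 3 reads, against 68 in WT and 73 in WTR. The called differences nearest to 0 were those of *oma-2* (7 reads against 44) and *egg-4* (1 read against 20), and the ratio of *egg-4* turned positive when its highest exon alone was used. The eggshell protein gene *perm-2*, at 28 reads against 214 in WT and 307 in WTR, was at 0 in WT (L2) and WT (L3). WTR and WT also differed here, with a median log2 ratio of 0.76 for WTR over WT, so the size of the oocyte difference depends on the control.

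DNA replication genes, which dividing germ cells use most at this stage, were called lower in 21 of 38 cases, with a median of -1.32. The helicase subunits *mcm-2* and *mcm-7* had 10.3 and 9.06 RPKM in R244H, against 70.8 and 68.0 in WT. The sliding clamp *pcn-1* had 15 reads against 120, and its level of 31.6 RPKM in R244H was also below the 109 RPKM of WT (L3). As a list, replication genes had 532 RPKM summed in R244H, 923 in WT (L3) and 1358 in WT, whereas the stem cell list in R244H (456 RPKM) lay beside WT (L3) (445 RPKM). Other annotated genes overlap exons of *mcm-2* and *mcm-7*.

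The somatic gonad did not follow as a whole. Of 22 listed genes, 3 were called lower (13.6%, compared with 16.7% of all genes) and 0 higher. The list had medians of -0.40 to WT and 0.01 to WTR. The 3 were the gap junction genes *inx-8*, *inx-14* and *inx-21*, which couple sheath cells and germ cells. *inx-8*, made in the sheath, had 2 reads in R244H, 28.5 in WT and 21.5 in WTR, and *inx-14*, a germ cell partner, had 0, 15 and 20. *mig-6*, a papilin that distal tip cells and muscle secrete, had 158 RPKM in R244H and 157 in WT. Of 25 vulval and uterine genes, 2 were called higher (8.0%) and 2 lower (8.0%). One of the latter was *sqv-1*, an enzyme of chondroitin synthesis that vulval shape depends on, with 2.5 reads against 39.

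**Figure D2:**
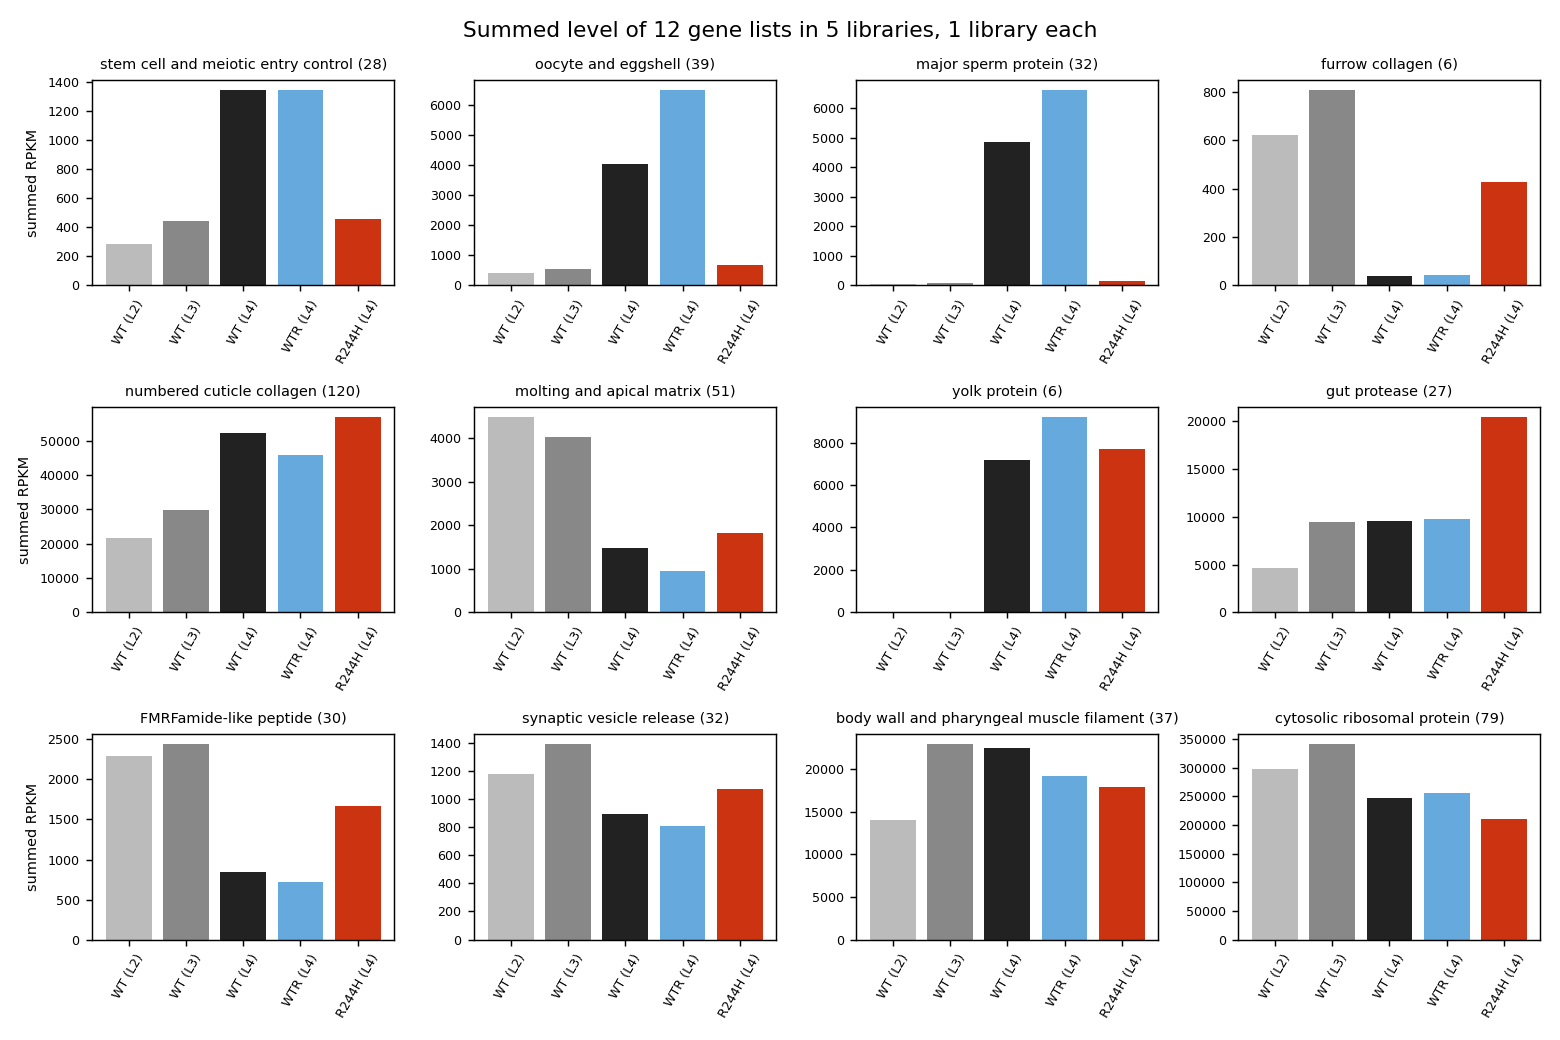
Summed RPKM of 12 gene lists in WT (L2), WT (L3), WT (L4), WTR (L4) and R244H (L4), 1 bar per library and the number of genes in brackets. In R244H the 3 germline lists shown stand near the L2 and L3 libraries, the yolk proteins and numbered collagens near the L4 controls, the furrow collagens between L3 and L4, and the gut proteases at 20473 RPKM, above the other 4 bars.

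The cuticle programme held more higher calls and fewer lower calls than the table as a whole. Of its 262 genes, 52 were called higher (19.8%) and 20 lower (7.63%), with a median of 0.14. Over all genes the shares were 7.34% and 16.7%. Transcripts that wild type begins to make after L3 were present in R244H, some near the level of the L4 controls. *col-19*, an adult-specific collagen that stood at 0 reads in WT (L2) and WT (L3), had 725 reads in R244H, 1017 in WT and 696 in WTR, with levels of 1180, 820 and 907 RPKM. Likewise, *rol-1* had 445 RPKM in R244H, 590 in WT and 441 in WTR, with no read at L2 or L3. Of the 120 numbered collagens, 39 had 3 reads or fewer in WT (L3). These 39 summed to 22059 RPKM in R244H and 17974 in WT, against 112.9 in WT (L3), and 5 of them were called higher and 4 lower.

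The furrow collagens, which form the circumferential grooves of the cuticle and are expressed early in each molting cycle, went the other way. All 6 were called higher against WT and against WTR, with medians of 3.34 and 3.49. *dpy-7* had 32 reads in R244H, 2 in WT, 0 in WTR and 82 in WT (L3), a log2 ratio of 3.51 to WT (interval 3.06 to 8.14) and at least 14.2-fold higher than WTR. *dpy-8* had 94.5 reads in R244H, 11 in WT and 1 in WTR, and *dpy-3* had 38, 6 and 6. *dpy-10*, which the balancer named in the label mutates, had 29 reads in R244H and 1 in each L4 control, and its ratio of 3.50 was like that of *dpy-7*. Together the furrow collagens had 426 RPKM in R244H, 38.6 in WT, 41.5 in WTR, 810 in WT (L3) and 622 in WT (L2).

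Other collagens that shape the body held both patterns. *dpy-17* (III, 5107330 to 5108497) had 52 reads in R244H and 1 read in each of WT, WTR and WT (L3), a log2 ratio of 5.42 (interval 4.19 to 12.1) that was the highest of the whole table under the rule for named genes. The blister collagens *bli-1* and *bli-2*, which build the struts of the adult cuticle, had 141 and 201 RPKM in R244H, 24.3 and 67.9 in WT and 11.9 and 55.0 in WTR. *bli-6* was near the controls, at 1044 RPKM in R244H, 942 in WT and 791 in WTR, and so was the abundant *dpy-13*, at 2227 RPKM in R244H and 2120 in WT. Among 16 collagen-processing enzymes 2 were called, both higher, namely *dpy-31*, the astacin protease that trims collagen C-termini, with 72 reads against 16 in WT and 12 in WTR, and the proprotein convertase *kpc-1*, with 56 reads against 35 and 28.

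Among the 120 numbered collagens, 16 were called higher (13.3%) and 14 lower (11.7%), and the median was -0.02. The share called lower was below the 16.7% of all genes. The highest were *col-176*, *col-98*, *col-103* and *col-42*, with log2 ratios of 5.26, 4.70, 4.09 and 4.01. *col-98* rests on 654 reads in R244H, 70 in WT and 143 in WTR, and it had 482 in WT (L3). *col-42* had 771, 84, 195 and 531 reads in the same order, and *col-176* had 167, 7, 1 and 77. In RPKM, these collagens were higher in R244H and in WT (L3) than in either L4 control. In contrast, *col-143* and *col-101*, with log2 ratios of 3.62 and 2.89, had 1 and 5 reads in WT (L3), 38 and 45 in WT, 83 and 85 in WTR, and 231 and 176 in R244H. On the lower side, *col-154* had 20 reads in R244H and 245 in WT, *col-137* 8 and 172, *col-145* 93 and 633, and *col-88* 153 and 963. *col-137* and *col-88* had 0 reads in WT (L3), so collagens that wild type begins to express between these libraries stood on both sides. *col-152* was called lower with 0 reads against 19, but WTR had 3 reads. Other genes overlap exons of *col-103* and *col-143*.

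**Figure D3:**
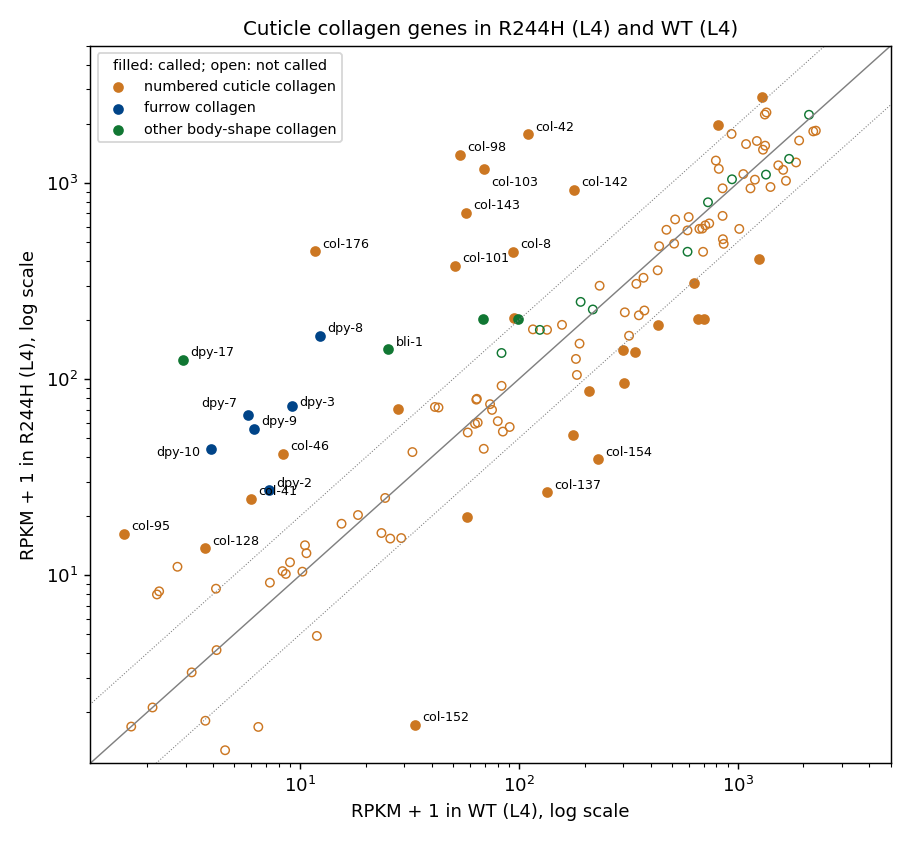
RPKM + 1 in R244H (L4) on the y axis against WT (L4) on the x axis, both on log scales, for the numbered, furrow and other body-shape collagens. Filled points were called, the solid line marks equal levels and the dotted lines 2-fold. All 6 furrow collagens lie above the lines, and the numbered collagens lie on both sides with most of the abundant ones near the diagonal.

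Of 51 molting and apical matrix genes, 13 were called higher and 2 lower, with medians of 0.65 to WT and 1.15 to WTR. The precuticle lipocalins *lpr-3* and *lpr-5*, which organise the temporary matrix of the molt, had 46 and 38 reads in R244H, 6 and 5 in WT and 5 and 2 in WTR. *fbn-1*, a fibrillin-like matrix protein, had 36.5 reads in R244H, 45 in WT (L3) and 0 in WT, which puts R244H at least 24.9-fold above WT. *noah-1* and *noah-2*, zona pellucida proteins of the same matrix, had 68.9 and 136 RPKM in R244H and 7.93 and 18.8 in WT, and *noah-2* had 257 in WT (L3). The protease inhibitor gene *mlt-11* had 164.5 reads in R244H, 36 in WT and 1 in WTR. *mlt-10*, by contrast, had 79.7 RPKM in R244H and 72.2 in WT. On the lower side, the cuticlin *cut-2* had 75 reads in R244H, 612 in WT and 206 in WTR.

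Hedgehog-related genes encode secreted proteins that the epidermis makes in step with the molt. Of 33, 7 were called higher (21.2%) and 3 lower (9.09%), compared with 7.34% and 16.7% of all genes. *wrt-10* had 13 reads in R244H, 3 in WT, 0 in WTR and 74 in WT (L3), and *wrt-1* had 26, 11, 4 and 59. *wrt-4* had 6 reads in R244H, 165 in WT, 79 in WTR and 47 in WT (L3), a log2 ratio of -3.16 (interval -5.22 to -2.60).

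Among 22 epidermal and stage-timing regulators, 4 were called higher and 1 lower. *lin-42*, the worm homologue of the clock gene period, whose RNA oscillates with each molt, had 258 reads in R244H, 180 in WT, 84 in WTR and 363 in WT (L3), a log2 ratio of 1.70 (interval 1.27 to 1.83). *myrf-1*, a membrane-bound transcription factor needed to molt, had 58.5 reads, against 32 in WT and 12.5 in WTR. *mab-10*, a cofactor that acts with LIN-29 to end molting, had 38 reads, 27 and 7. *lin-29* itself, the zinc finger factor of the larval-to-adult switch, had 6 reads in R244H and 7 in WT, too few to resolve a difference (interval -1.04 to 2.61). *lin-41*, which acts before that switch and also in oocytes, was called lower, with 8 reads against 83 in WT, 75 in WTR and 98.0 in WT (L3). The early larval regulators *lin-14* and *lin-28* had log2 ratios of 0.03 and 0.01 to WT, from 10 and 8 reads in R244H.

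Intestinal genes were higher more often than lower. Of 147, 29 were called higher (19.7%) and 11 lower (7.48%), with a median of 0.36. The programme took 7.35% of the reads in R244H, 5.01% in WT and 5.38% in WTR. Yolk proteins were at L4 levels. None of the 6 vitellogenin genes was called against WT, their summed level was 7686 RPKM in R244H, 7196 in WT and 9218 in WTR, and the family had 4 reads in all in WT (L3). Within the family, *vit-3* and *vit-4* had log2 ratios of -0.99 and -0.61, whereas *vit-1*, *vit-2* and *vit-5* had 0.23, 0.35 and 0.25. Against WTR, *vit-3* alone was called lower, at -1.57. The vitellogenin genes resemble each other closely, *vit-3* and *vit-4* most of all, so reads can be split between them.

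Of 17 genes listed as gut transcription factors, 6 were called higher and 1 lower. The gene called lower was *lin-54*, with 1 read in R244H, 25 in WT and 20 in WTR (log2 ratio -2.34). *pqm-1*, a zinc finger factor of stress and fat genes, had 89.5 reads in R244H, 15.5 in WT and 27 in WTR, a log2 ratio of 3.34 (interval 2.73 to 4.37). *mxl-3*, which represses lipase genes when food is present, had 61 reads against 25 and 12. *elt-2*, the GATA factor that directs gut gene expression, had 11.5 reads in R244H, 7 in WT and 1 in WTR, so its ratio of 1.26 rests on few reads (interval 0.18 to 3.29). *arrd-6* overlaps exons of *pqm-1*.

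The list of digestive and lysosomal proteases held 27 genes, among them the nuclease gene *nuc-1*, which was not called. Of the 27, 11 were called higher and 0 lower, with a median of 0.81. Their summed level was 20473 RPKM in R244H, 9596 in WT, 9746 in WTR and 9450 in WT (L3). The aspartic protease *asp-1* made up the largest part, with 8037 RPKM in R244H and 4029 in WT, and its ratio lay just short of the 2-fold threshold. *cpr-5*, a cathepsin B-like protease, had 877 reads in R244H, 451 in WT and 228 in WTR, a log2 ratio of 2.02 (interval 1.82 to 2.16). *asp-8* and *cpr-8* had the highest ratios, 3.64 and 3.20, from 48 and 20 reads in R244H against 6.5 and 2 in WT. *asp-5*, *asp-6*, *cpl-1* and *cpz-1* were each between 1.21 and 1.66, with at least 371 reads in either library.

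Fatty acid enzymes stood on both sides. *fat-7* and *fat-5*, delta-9 desaturases that make the monounsaturated fatty acids, had 0 reads in R244H, 41 and 18 in WT and 15 and 7 in WTR. Against WT they were at least 6.69-fold and 2.94-fold lower. *fat-6*, the remaining delta-9 desaturase and the most abundant of them, was not called against either control, with 173 RPKM in R244H, 186 in WT and 151 in WTR and log2 ratios of -0.10 (interval -0.43 to 0.25) and 0.20. *fat-1*, *fat-2*, *fat-3* and *fat-4*, the desaturases of the polyunsaturated branch, were all called higher against both L4 controls, and *fat-1* and *fat-4* had log2 ratios of 1.93 and 1.77. *fat-2*, for example, had 324 reads in R244H, 198 in WT and 186 in WTR. The elongase *elo-2* was also higher, with 46.5 reads against 25 and 20.5. The lipid-binding protein gene *lbp-9* was lower, with 46 reads in R244H, 344.5 in WT and 268 in WTR. In all, 6 of the 32 genes of this list were called higher and 7 lower.

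Defence and metal genes gave fewer calls. Of 24 lysozyme and saposin-like genes 3 were called higher and 3 lower, and the invertebrate-type lysozyme *ilys-5* had 181 RPKM in R244H, 1624 in WT and 1527 in WTR, a log2 ratio of -3.16 (interval -3.78 to -2.72). The saposin-like *spp-14* had 371 reads in R244H and 254 in WT, a log2 ratio of 1.57. Among 24 transport and metal genes, 3 were called higher, namely the ferritin *ftn-1* (18 reads, 3 in WT, 4 in WTR), the metallothionein *mtl-2* (67, 65 and 33) and the haem transporter *hrg-1* (16, 8 and 10). Structural genes of the gut lumen gave no calls. None of 17 was called, the median was 0.00, and the intestinal actin *act-5* had 1159 RPKM in R244H and 1223 in WT.

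**Figure D4:**
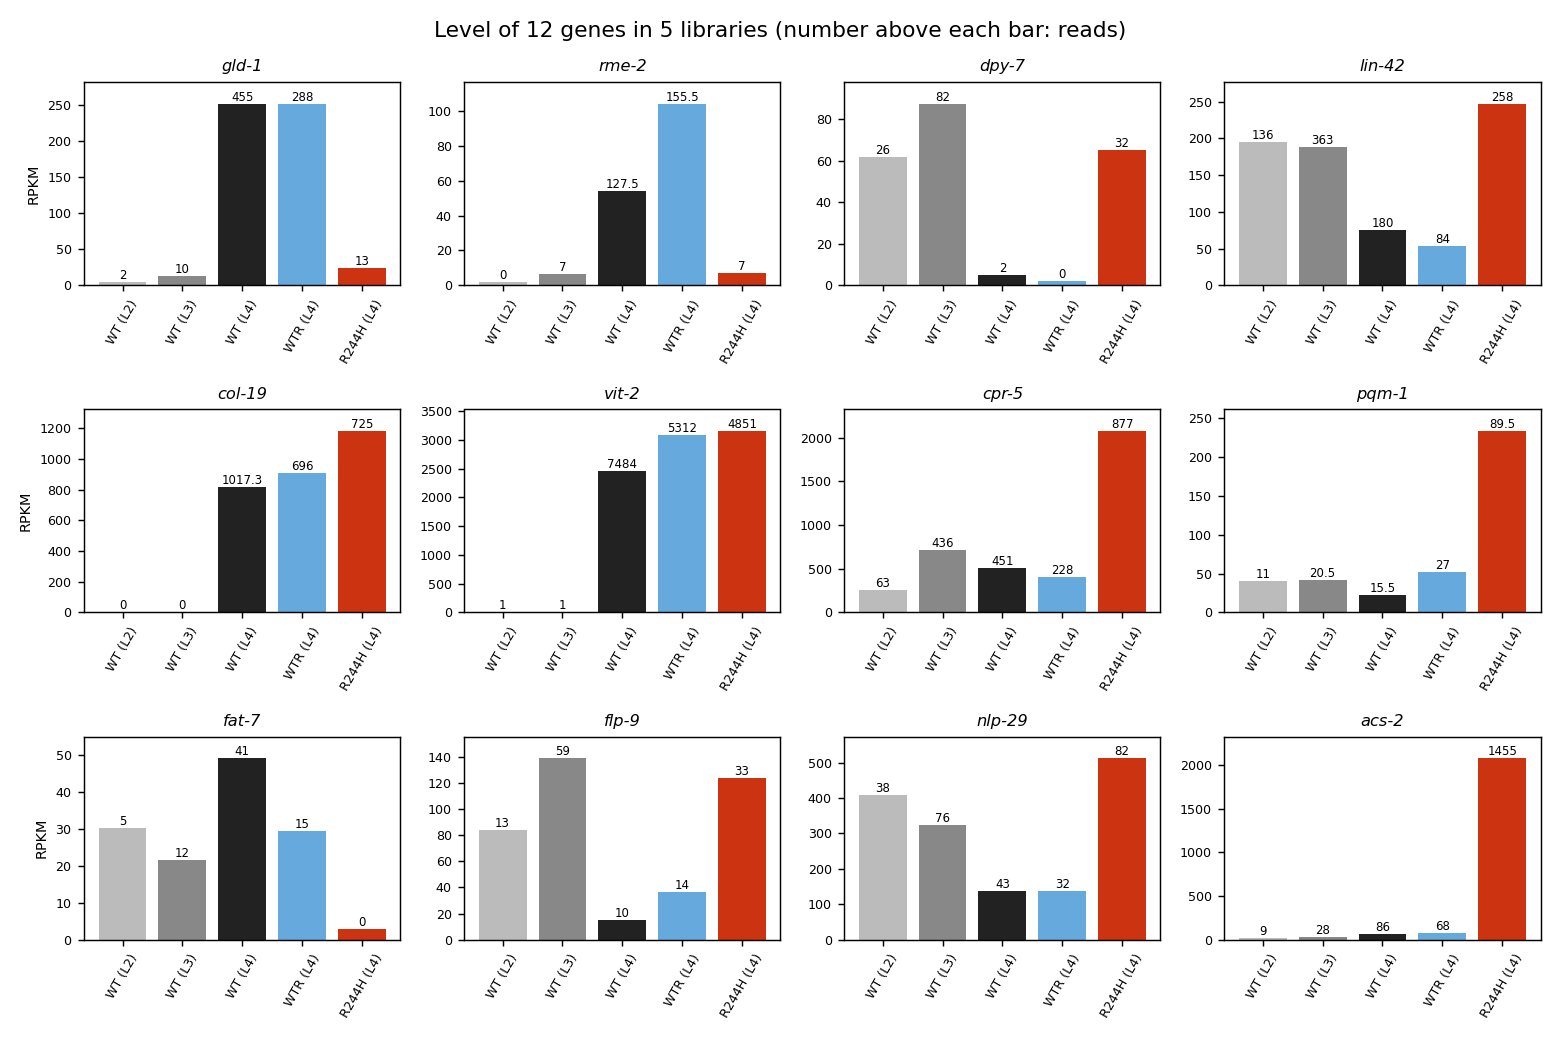
RPKM of 12 genes in 5 libraries, with the number of reads above each bar. *gld-1* and *rme-2* are low in R244H, as in L2 and L3, and *col-19* and *vit-2* are at the height of the L4 controls. *dpy-7*, *lin-42* and *flp-9* are higher in the L2 and L3 libraries and in R244H than in the L4 controls. Of the 5 libraries drawn, *acs-2* is highest in R244H with 1455 reads. The *gk165* (L2) library, which is not drawn, had 4042.

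Neuronal genes differed by kind. Of 266, 31 were called higher (11.7%) and 4 lower, with a median of 0.48, and most of the genes called higher stand in the 4 peptide lists. These lists also hold peptide genes of the epidermis and the intestine, named below. Of 30 genes for FMRFamide-like peptides, a family of neuromodulators, 7 were called higher and 0 lower, 29 had a ratio above 0, and the median was 0.95. *flp-9* had 33 reads in R244H, 10 in WT, 14 in WTR and 59 in WT (L3), a log2 ratio of 2.97 (interval 1.70 to 3.94). *flp-18*, *flp-12* and *flp-14* had 19, 25 and 21 reads against 14, 16 and 20 in WT, with log2 ratios of 1.33, 1.57 and 1.15, the last of which turned negative with the highest exon alone. *flp-1* was at 0.55 and not called. The summed level of the list was 1670 RPKM in R244H, 840 in WT, 721 in WTR and 2445 in WT (L3).

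Of 49 other neuropeptide genes, 10 were called higher and 1 lower. *nlp-29* and *nlp-28*, antimicrobial peptides of the epidermis, had 82 and 36 reads in R244H, 43 and 12 in WT and 32 and 14 in WTR. *nlp-13* and *nlp-35* had 28 and 8.5 reads against 15 and 1, and *nlp-40*, which the intestine releases in the defecation cycle, had 97 reads against 85.5. Of 19 insulin-like peptides 4 were called higher, each from few reads, such as *daf-28* with 12 reads against 4 in WT and 7 in WTR. Of 14 genes of peptide processing and dense-core vesicles, 4 were called higher and none had a ratio below 0, with a median of 0.92. *egl-3*, the convertase that cuts peptide precursors, had 84.0 reads in R244H, 69 in WT and 22 in WTR (log2 ratio 1.15), and the carboxypeptidase *egl-21* had 70, 73 and 36 (0.99, not called).

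The general machinery of neurons was called higher less often than the peptide genes. Of 32 genes of synaptic vesicle release 3 were called higher, with a median of 0.43, and the vesicle proteins *snb-1* and *rab-3* had log2 ratios of 0.58 and 0.48. Of 31 genes of neuronal structure, 1 was called lower, with a median of 0.10. Against WTR the medians of these lists were 0.51 and 0.55, compared with -0.17 over all genes. There, 4 vesicle release genes and 3 structure genes were called higher. Of 47 ionotropic receptors 2 were called higher, and 15 had no read in R244H. *unc-119*, which the transgene construct also carries, had 2 reads in R244H and 8.5 in WT. Among the 19 genes of transmitter synthesis and transport, 2 were called lower. These were *tdc-1* and *tbh-1*, which make tyramine and octopamine in a few neurons and in the gonadal sheath. They had 5 and 2.5 reads in R244H, 27 and 26.8 in WT, 27.5 and 41.8 in WTR, and 4 and 0 in WT (L3), beside the drop of the sheath gene *inx-8*, and the part of the sheath in these values was not tested.

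Muscle and ribosomal genes served as reference lists. Of 37 muscle filament genes, 1 was called lower and 0 higher, with a median of -0.30, near that of all genes. It was the actin *act-2*, with 341 RPKM in R244H and 1012 in WT. The myosins *unc-54* and *myo-3* had log2 ratios of -0.40 and 0.09. Of 79 cytosolic ribosomal proteins, 3 were called lower, with a median of -0.24. These 3 were *rpl-11.1*, *rpl-25.2* and *rpl-41.1*, and *rpl-11.1* had 93 reads in R244H, 1041 in WT and 785 in WTR.

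Outside the lists, *acs-2* (V, 15567394 to 15569889), an acyl-CoA synthetase that feeds fatty acids into mitochondrial oxidation, had 1455 reads in R244H, 86 in WT and 68 in WTR, a log2 ratio of 5.05 (interval 4.80 to 5.44). It had 4042 reads in *gk165* (L2) and 9 in WT (L2). The remaining genes that the rule put among the 10 highest were *F18E3.13*, with 95 reads against 10, *F21C10.10*, with 83 reads against 8.5, *mltn-9*, a relative of the molting gene *mlt-10*, with 34.5 reads against 1, and *zmp-2*, a matrix metalloproteinase, with 38 reads against 0, at least 25.9-fold higher. The 10 lowest held 6 major sperm protein genes, *spch-1*, *msd-4*, *Y38C1AA.7* and *F08B4.8*. The latter pair had 1 and 0 reads in R244H and 230 and 51 in WT.

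**Figure D5:**
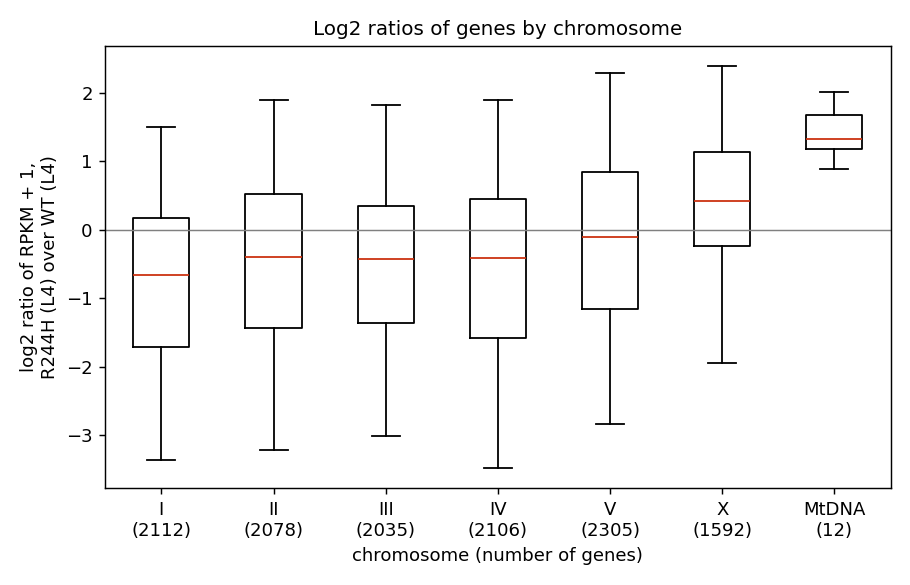
Log2 ratio of RPKM + 1, R244H (L4) over WT (L4), for genes with 5 RPKM or more on each chromosome. Boxes span the quartiles with the median in red and whiskers the 5th to 95th percentiles. The X chromosome and the mitochondrial genome have medians above 0, at 0.42 and 1.32.

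The difference was uneven over the chromosomes. Genes on the X had a median log2 ratio of 0.42, and 12.3% of the 1592 were called higher and 2.76% lower. On chromosome I the median was -0.65, with 3.98% called higher and 24.5% lower, and on V it was -0.10. The other autosomes lay between -0.43 and -0.40. Against WTR the median of the X was 0.58. Germline-expressed genes are known to be scarce on the X of this species, and 1 of the 259 germline list members lies there. The 1 member on the X was not among the 1592. Leaving the germline lists out therefore removed no gene from the X, and its median of 0.42 could not change. On chromosome I it left 2033 of 2112 genes, and the median moved to -0.61. Chromosomes II to V then had medians between -0.41 and -0.07. The lists covered few of the genes on any chromosome. The part of germline expression in the split between the X and the autosomes was therefore not tested. All 12 protein genes of the mitochondrial genome, which encode subunits of the respiratory chain and the ATP synthase, had ratios above 0, and 10 of them were called higher, with a median of 1.32 to WT and 1.51 to WTR. *ctc-1*, a cytochrome oxidase subunit, had 2874 reads in R244H, 1689 in WT and 1345 in WTR. *ctb-1*, which encodes cytochrome b, had 1394.5 reads, 913 and 614. Transcripts of this genome were read from RNA selected for polyA tails, and the part of that selection in these values was not tested.

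Set against WTR, the control that shares the deletion and the transgene insertion, the calls were alike in number. Of all genes, 1056 were called higher (8.25%) and 2258 lower (17.6%), and against both controls 648 were called higher (5.06%) and 1678 lower (13.1%). In the germline lists 177 genes were called lower against both, in the cuticle lists 44 higher and 16 lower, in the intestine lists 23 higher and 8 lower, and in the neuron lists 20 higher and 3 lower. Both contrasts use the same R244H library, so they are not independent of each other. Between the controls themselves, WTR over WT, 276 genes were called higher (2.16%) and 280 lower (2.19%). For scale, between WT (L3) and WT 1933 genes were called higher at L4 (15.1%) and 1173 lower (9.17%).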

How the data were processed

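The authors deposited log2 RPKM values for 53267 merged exons of 12798 genes in 6 libraries. Per the labels and the study's methods, reads were trimmed with Trim Galore 0.4.1 and cutadapt 1.14, aligned with TopHat2 2.1.0 and Bowtie2 to WBcel235 (Ensembl release 94), counted with featureCounts on merged exons and normalized with edgeR 3.26.8. Whether strand was used in counting is not given in the sources used here. The deposited log2 values hold an offset of 0.54 CPM, which draws ratios of low genes towards 0. Read numbers were recovered from the steps of the values, of which 54.0% were whole to within 0.01 read, since shared reads were counted in fractions.

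Linear RPKM was averaged over the exons of each gene. Log2 ratios used a pseudocount of 1 RPKM. Pooled reads, rounded to whole numbers, gave 95% intervals. Where 1 library had 0 reads, a bound was computed from 3 reads. At 3 reads a gene has 7.66 CPM in R244H (L4) and 3.75 CPM in WT (L4). With 1 library per condition no test was made.

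Genes named were *sdhb-1* and *cup-15*, members of 35 lists (per list the 4 highest and the 4 lowest ratios among those called, those with the highest RPKM in either library, and defining genes such as *gld-1*, *col-19*, the vitellogenins and *unc-54*), and the 10 highest and 10 lowest ratios among called genes with 30 reads or more in the higher library that were called the same way against WTR. Other genes shown (*atx-2*, *noah-2*, *mlt-10*, *mlt-11*, *lin-14*, *lin-28*, *rol-1*, *bli-6*, *col-88*, *col-101*, *col-143*, *asp-5*, *asp-6*, *cpl-1*, *cpz-1*, *fat-3*, *fat-6*, *flp-14*, *flp-18*, *nlp-40*, *arrd-6* and the mitochondrial genes) were chosen after their values were seen, as was the view by chromosome. The members and lists were chosen with earlier results of these data known. Overlaps came from Ensembl release 115 of the same assembly: besides those named in the text, other genes overlap exons of *glp-1*, *inx-14*, *col-19*, *dpy-8*, *dpy-10*, *bli-1*, *dpy-31*, *kpc-1*, *lpr-3*, *fbn-1*, *mlt-11*, *cut-2*, *fat-5*, *lbp-9*, *nlp-35*, *tbh-1* and *F21C10.10*, so their reads are less certain. The alternatives were other pseudocounts, scalings, exon summaries, minimum levels, thresholds and controls. The calls were tested on simulated data for R244H (L4) against WT (L4), with counting error only. The 200 genes changed 4-fold were drawn from those above the median signal of the 12798. Of the 200, 100% of those raised and 81% of those lowered were called, and 160 unchanged genes were called too. Recovery among weaker genes was not tested. Intervals were computed with scipy 1.17.1 and figures drawn with matplotlib 3.10.9, under Python 3.11.15 with pandas 2.3.3 and numpy 2.4.6.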

Additional observations from a re-analysis of the deposited data

How the results depend on the processing

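No paired analysis was possible because each condition has 1 library, and for the same reason no replicate could be left out. Without the interval condition, 2005 genes were called higher and 3792 lower, and the counts in the lists were 32 lower for the cuticle and 79 higher and 26 lower for the neurons. At a 3-fold threshold 538 genes were higher, and the counts were 12 lower for the cuticle, 15 higher for the intestine, and 14 higher and 1 lower for the neurons. Centring on the median of expressed genes, a shift of 0.27, gave 44 higher for the intestine and 47 higher and 2 lower for the neurons. Plain read totals gave 2 lower for the neurons, and requiring both L4 controls gave 20 higher. The other counts stayed within 1.5 times of those reported. Using the highest exon only reversed *egg-4* (2.17), *rfc-1* (0.39), *rfc-3* (0.70) and *flp-14* (-0.15), and the cause was not tested. Of 35 list medians under 11 alternatives, 371 values moved by no more than the list's semi-interquartile range and 14 by more, and no list with a median of 1 or more in size changed sign. The 196 genes checked singly gave 1 value each under each of the 11 alternatives. Of these values, 1968 stayed the same, 180 lost the call, 4 gained it and 4 reversed. The 3-fold threshold gave 62 of the 180. At the depth of R244H, 16.2% of genes had no read, compared with 6.93% in WT (L4), so a lower level of a weakly expressed gene was often not detectable.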
